A study of Mus musculus with 8 samples.

Results

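The acrosome and gamete fusion genes examined here were 42 protein-coding genes of the mouse, out of 54532 genes in the deposited table, 22046 of them protein-coding. They were chosen by name, from genes whose products build the acrosome, fill it, fasten it to the nucleus or act when sperm and egg meet. The list was drawn up with the comparison below already known, so the differences between the groups are given as a description of these genes. All 42 names were found, on 14 autosomes and on neither sex chromosome.

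RNA was measured by bulk RNA-seq in the whole testis of juvenile male mice, with 4 libraries labelled control, called Sync-Spdya fl/fl or fl/fl here, and 4 from Sync-Spdya cKO mice, 1 mouse each. Spermatogenesis of all 8 mice had been synchronized, with an inhibitor of retinoic acid (RA) synthesis followed by RA, and testes were taken at RA11.5, which counts days from the RA injection and is described as mid-late pachytene. All mice carried floxed Spdya and received tamoxifen at RA7.5 and RA8.5 according to the labels, and the cKO mice also carried Ddx4-CreERT2, which is active in germ cells and removes exon 2 of Spdya. Somatic cells of the cKO testes therefore kept the gene, and the fl/fl controls carried no Cre. Fragments on genes ranged from 13978342 to 17867570 in the fl/fl and from 15494873 to 19583091 in the cKO libraries. Levels are FPKM, fragments per kilobase of gene length scaled to the size of the library, so they can be compared between genes. In bulk testis, fewer cells of a type and less RNA per cell cannot be told apart.

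The acrosome is a vesicle derived from the Golgi apparatus that spreads as a cap over the nucleus of the round spermatid. Its cargo of proteases and their partners is released when the sperm meets the zona pellucida, the coat of the egg, and membrane proteins exposed by that release take part in fusion. Although the cap forms after meiosis, transcription of a number of its genes starts in pachytene spermatocytes, while others are known as spermatid genes. For this reason an early list of 7 genes (Acr, Acrbp, Crisp2, Pcsk4, Dkkl1, Spink2 and Spata16) was set beside a late list of 8 genes (Acrv1, Spam1, Hyal5, Zp3r, Izumo1, Spaca1, Actl7a and Dpy19l2).

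The levels of the 42 genes at RA11.5 spread from no fragment at all to over 100 FPKM. In the fl/fl testes 12 genes had a mean above 10 FPKM, 10 lay between 1 and 10, 9 between 0.1 and 1, and 11 at or below 0.1. The 22 genes with a mean above 1 FPKM in both groups entered the test across all genes, and the other 20 did not. No fragment was seen in any of the 8 libraries for 4 genes, the hyaluronidase Spam1, the Izumo1 relative Izumo2, the lysozyme-like Spaca3, and Iqcf1. With 3 fragments over the 8 libraries as the limit, these zeros allow mean levels of up to 0.0102, 0.0313, 0.0238 and 0.0307 FPKM respectively, counting error only.

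**Figure D1:**
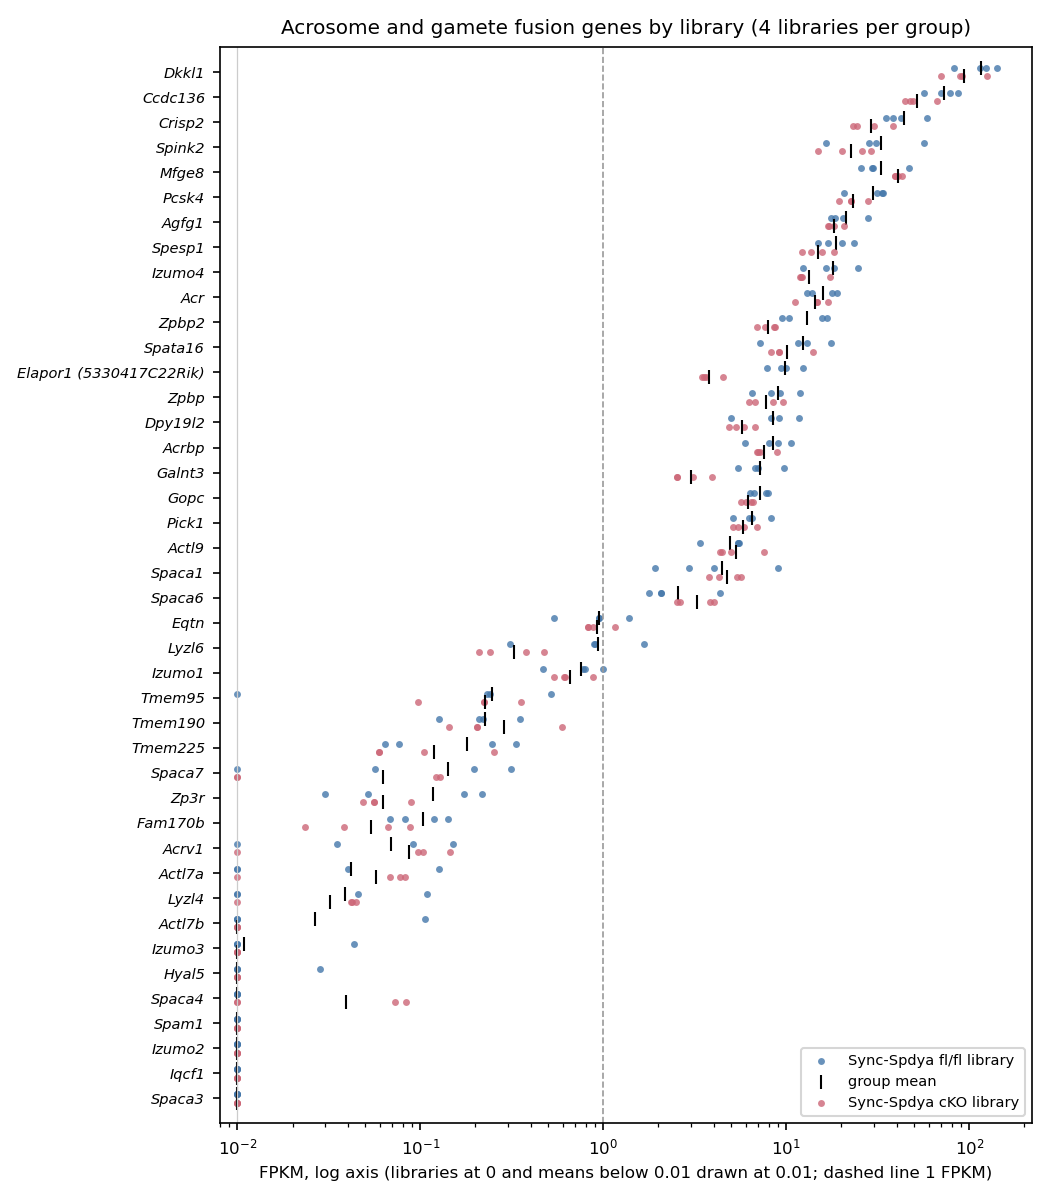
FPKM of each of the 42 genes in every library, on a log axis, with fl/fl libraries in blue, cKO libraries in red and group means as black ticks. The genes fall into a group of 22 to the right of 1 FPKM and 20 to the left of it, and the red points lie wholly to the left of the blue ones among the 22 only for Elapor1 (5330417C22Rik), Galnt3 and Zpbp2.

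Round spermatid markers were checked beside these levels. Prm1, Prm2, Tnp1 and Tnp2, which encode the protamines and transition proteins that replace histones in spermatids, had fl/fl means of 0.355, 0.0776, 0.106 and 0.236 FPKM. The 8 round spermatid markers summed to 6 to 7.83 FPKM in the fl/fl and 5.2 to 7.2 FPKM in the cKO libraries, most of it from Gapdhs (fl/fl mean 3.93 FPKM) and Tssk6 (1.9 FPKM). The 8 pachytene spermatocyte markers summed to 1330 to 2110 and 1140 to 1740 FPKM. Hspa2, Ldhc, Piwil1 and Ybx2 made up most of that sum, whereas Hist1h1t, the linker histone of later spermatocytes, had an fl/fl mean of 0.279 FPKM. The paper reports H1t protein in most pachytene cells of both groups slightly earlier, so this RNA level is not read as a stage. Mean levels of Prm1, Prm2, Tnp1 and Tnp2 were thus at most 0.355 FPKM in fl/fl testes. There 22 of the 42 acrosome and fusion genes had means above 1 FPKM, as did Gapdhs and Tssk6. Which cells of the testis supplied these RNAs was not tested.

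Among the enzymes and other proteins of the acrosomal matrix, 11 genes, the early list supplied the highest levels. Dkkl1, which encodes an acrosomal glycoprotein related to dickkopf proteins, had 114, 124, 141 and 82.4 FPKM in fl/fl libraries 1 to 4 and 125, 90.6, 88.5 and 70.4 FPKM in cKO libraries 1 to 4. Its mean of 115 ± 24.7 FPKM (SD, n = 4) in fl/fl testes exceeded that of 99.1% of protein-coding genes. The groups overlapped, with cKO 1 above 3 of the 4 fl/fl libraries and cKO 4 below all of them, and the log2 fold change of cKO against fl/fl was -0.30 (SE 0.21).

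Crisp2, a cysteine-rich secretory protein of the acrosome and the sperm tail, had 35, 38.4, 59 and 42.3 FPKM in the fl/fl and 38.1, 30, 24.4 and 23.1 FPKM in the cKO libraries. Libraries cKO 2, cKO 3 and cKO 4 lay below every fl/fl library and cKO 1 lay among them, at a log2 fold change of -0.59 (SE 0.20). Spink2, an inhibitor of serine proteases that guards against early acrosin activity, had 16.5, 28.2, 56.3 and 30.8 FPKM in fl/fl testes. Its cKO values were 28.9, 26, 20.2 and 14.9 FPKM. The fl/fl libraries of Spink2 differed by more than the group means did, 32.9 ± 16.8 against 22.5 ± 6.22 FPKM (SD, n = 4), and the log2 fold change of -0.46 (SE 0.34) became -0.15 without fl/fl 3, -0.27 without cKO 4 and -0.74 without fl/fl 1.

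Pcsk4, the proprotein convertase of germ cells, had 33.9, 33.2, 31.3 and 20.6 FPKM in the fl/fl and 28.1, 22.5, 22.5 and 19.3 FPKM in the cKO libraries (log2 fold change -0.35, SE 0.18). Here fl/fl 4 was the low library, and it lay below 3 of the 4 cKO libraries. Acr, which encodes acrosin, the main serine protease of the acrosome, had 13.8, 19, 17.7 and 13 FPKM in the fl/fl and 16.9, 14.7, 14.7 and 11.2 FPKM in the cKO libraries. Acrbp, the protein that binds proacrosin and keeps it packed, had 5.96, 8.99, 10.6 and 8.06 FPKM against 8.94, 7.2, 7 and 6.88 FPKM. Acrosin and its binding protein thus lay close together in the groups, each with a log2 fold change of -0.14 (SE 0.16 for Acr and 0.17 for Acrbp).

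Spata16, a Golgi protein that joins the forming acrosome and the last gene of the early list, had 7.19, 13, 17.5 and 11.6 FPKM in the fl/fl and 14, 9.1, 8.2 and 9.12 FPKM in the cKO libraries. The lowest and the highest of these 8 values were both in fl/fl testes, and its log2 fold change was -0.25 (SE 0.26). Spesp1, a protein of the equatorial segment, was present at 18.8 ± 3.78 FPKM in fl/fl and 14.9 ± 2.63 FPKM in cKO testes (SD, n = 4; log2 fold change -0.33, SE 0.17).

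The remaining 4 genes of the matrix were near or below 1 FPKM. Eqtn, which encodes equatorin of the acrosomal membrane, had means of 0.949 and 0.923 FPKM. Spaca7 and Zp3r, the latter an acrosomal matrix protein first described as a zona ligand, had fl/fl means of 0.141 and 0.118 FPKM, on 12 and 24 fragments over the 8 libraries. Zp3r had 0.216, 0.052, 0.0302 and 0.173 FPKM in the fl/fl and 0.0486, 0.0886, 0.0559 and 0.0555 FPKM in the cKO libraries. Acrv1, the acrosomal vesicle protein SP-10, had 0, 0.0907, 0.0351 and 0.151 FPKM in the fl/fl and 0, 0.103, 0.0976 and 0.145 FPKM in the cKO libraries. Eqtn and Spaca7 entered only the fit with the filter lowered to 0.1 FPKM, where Eqtn had a log2 fold change of 0.01 (SE 0.25) and Spaca7 of -0.48 (SE 0.49), and Zp3r and Acrv1 entered neither fit.

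The hyaluronidases and the lysozyme-like proteins were the least represented families. Hyal5, which with Spam1 digests the hyaluronan around the egg, had 1 fragment in all, in fl/fl 4, at 0.0282 FPKM, and Spam1 had none. The 2 genes are neighbours on chromosome 6, with 56.9 kb and no other protein-coding gene between them. Of the lysozyme-like genes, Lyzl6 had 0.307, 0.889, 0.902 and 1.66 FPKM in the fl/fl and 0.208, 0.378, 0.239 and 0.474 FPKM in the cKO libraries. The groups of Lyzl6 overlapped through fl/fl 1, and the values rest on 83 fragments over the 8 libraries. The cKO mean of Lyzl6 was 0.346 times the fl/fl mean. In the fit with the filter lowered to 0.1 FPKM its log2 fold change was -1.16 (SE 0.41, limma adjusted p = 0.344). Lyzl4 had 0.109, 0, 0.0456 and 0 FPKM in the fl/fl and 0, 0.0447, 0.0423 and 0.042 FPKM in the cKO libraries, 6 fragments in all, and Spaca3 had none.

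Both zona pellucida binding proteins, which sit in the acrosomal matrix and shape it, were present. Zpbp2 lies on chromosome 11 of GRCm38 at 98551097 to 98558665. Its levels were 9.48, 16.7, 15.6 and 10.3 FPKM in the fl/fl and 8.67, 8.56, 7.65 and 6.93 FPKM in the cKO libraries. Every cKO library of Zpbp2 was below every fl/fl library, and the log2 fold change was -0.67 (SE 0.19). Its relative Zpbp had 6.52, 9.28, 11.8 and 8.29 FPKM against 9.59, 8.46, 6.71 and 6.25 FPKM, and its groups overlapped (log2 fold change -0.20, SE 0.19).

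The 7 genes of acrosome formation, vesicle traffic and the Golgi were all present above 1 FPKM. Of the 22 tested genes, those with the lowest cKO values relative to the controls were in this group. Elapor1, listed in the files as 5330417C22Rik (ENSMUSG00000040412, chromosome 3 of GRCm38, 108455694 to 108536536), encodes a transmembrane protein of endosomes and lysosomes. It had 7.83, 9.3, 12.4 and 10 FPKM in the fl/fl and 3.56, 4.53, 3.47 and 3.62 FPKM in the cKO libraries. The highest cKO value of Elapor1 was well below the lowest fl/fl value, and the cKO mean was 0.384 times the fl/fl mean (log2 fold change -1.35, SE 0.15). Its interval overlaps that of the protein-coding gene 1700013F07Rik on the opposite strand and that of Gm37859 on the same strand. The use of strand was not given, so some of its fragments could belong to another gene. Galnt3 (ENSMUSG00000026994, chromosome 2, 66082766 to 66124994), a Golgi enzyme that starts O-linked glycosylation, had 7.01, 6.73, 9.67 and 5.41 FPKM in the fl/fl and 3.09, 3.94, 2.52 and 2.52 FPKM in the cKO libraries. These groups did not overlap either, at 0.419 times the fl/fl mean (log2 fold change -1.22, SE 0.20). The difference of Elapor1 and Galnt3 was known when the list was made, so it stands as a description with no p printed, and the call counted below is no independent support for it.

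Ccdc136, a coiled-coil protein needed for acrosome formation and the second most abundant of the 42 genes, had 87, 69.6, 78.6 and 56.7 FPKM in the fl/fl and 66.5, 49.1, 47.5 and 44.7 FPKM in the cKO libraries. Only cKO 1 lay within the range of the fl/fl libraries, and the log2 fold change was -0.49 (SE 0.17). Agfg1, Gopc and Pick1, whose products carry and sort vesicles from the Golgi to the acrosome, had fl/fl means of 21.1, 7.18 and 6.5 FPKM. Their log2 fold changes were -0.19, -0.21 and -0.14 (SE 0.15, 0.11 and 0.15).

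Of the 6 genes that fasten the acrosome to the nucleus, 3 were present above 1 FPKM. Dpy19l2, a protein of the inner nuclear membrane to which the acrosome is anchored, had 4.99, 9.07, 11.7 and 8.23 FPKM in the fl/fl and 6.76, 5.84, 5.32 and 4.88 FPKM in the cKO libraries. Apart from fl/fl 1, the fl/fl libraries were above all cKO libraries (log2 fold change -0.51, SE 0.23). Spaca1, a protein of the inner acrosomal membrane, had 8.99, 4.01, 1.92 and 2.94 FPKM in the fl/fl and 5.62, 5.34, 4.27 and 3.8 FPKM in the cKO libraries. The fl/fl values of Spaca1 enclosed all the cKO values, and its log2 fold change of 0.30 (SE 0.38) became -0.01 without fl/fl 3.

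The actin-like proteins of the space below the acrosome differed in level among themselves. Actl9 had 5.45, 5.46, 5.5 and 3.38 FPKM in the fl/fl and 7.51, 4.33, 5.01 and 4.46 FPKM in the cKO libraries. Its log2 fold change was 0.10 (SE 0.21), and turned to -0.07 without fl/fl 4 and to -0.08 without cKO 1. Actl7a had 0, 0, 0.127 and 0.0403 FPKM in the fl/fl and 0.0682, 0.0828, 0 and 0.0778 FPKM in the cKO libraries. Actl7b had 0.106 FPKM in fl/fl 1 and no fragment in the other libraries. Actl7a and Actl7b are neighbours on chromosome 4, 1.97 kb apart, whereas Actl9 lies on chromosome 17. Fam170b, another gene of this group, had fl/fl and cKO means of 0.103 and 0.0538 FPKM.

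The membrane proteins linked to fusion were mostly low. Izumo1, the sperm protein that binds its receptor on the egg, had 0.995, 0.774, 0.47 and 0.795 FPKM in the fl/fl and 0.534, 0.879, 0.614 and 0.61 FPKM in the cKO libraries. Its interval overlaps that of Rasip1 on the same strand, so that some of its 277 fragments could belong to either gene. Izumo4, by contrast, had 24.6, 18.1, 16.5 and 12.3 FPKM in the fl/fl and 17.3, 12, 11.9 and 12.1 FPKM in the cKO libraries (log2 fold change -0.40, SE 0.20). Izumo3 had 0.0436 FPKM in fl/fl 2 and nothing elsewhere, and Izumo2 had no fragment. The Izumo family thus ran from an fl/fl mean of 17.9 FPKM for Izumo4 to below 1 FPKM for Izumo1 and to at most 1 fragment for the other 2.

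Mfge8, a secreted glycoprotein that binds phosphatidylserine and is also made by somatic cells, had 46.6, 29.3, 29.7 and 25.5 FPKM in the fl/fl and 39.1, 39.4, 41 and 42.7 FPKM in the cKO libraries. All cKO libraries were above 3 of the 4 fl/fl libraries and below fl/fl 1 (log2 fold change 0.34, SE 0.17). Spaca6, a membrane protein required for fusion, had fl/fl and cKO means of 2.57 ± 1.2 and 3.25 ± 0.783 FPKM (SD, n = 4; log2 fold change 0.39, SE 0.28). Tmem95, another fusion protein, and Tmem190 had means of 0.224 to 0.286 FPKM in both groups. Spaca4 was seen in cKO 1 and cKO 4 only, with 2 fragments in all. Tmem225, an inhibitor of protein phosphatase 1 listed with no other role, had means of 0.18 and 0.119 FPKM.

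Taking the 22 tested genes as a list, 18 had a log2 fold change below 0 and 4 above 0 (Mfge8, Spaca6, Spaca1 and Actl9), with a median of -0.27 beside 0.01 over all 12141 genes tested. That is 81.8% of the genes below 0, where 48% of all genes were. The median of the 22 ranged from -0.42 without cKO 1 to -0.19 without fl/fl 3 or cKO 4. Of the 22 log2 fold changes, 15 moved by over 1.5 times when 1 library was left out, most often fl/fl 1 (11 genes) or fl/fl 3 (10 genes), and the 7 that did not were those of Ccdc136, Crisp2, Pcsk4, Zpbp2, Elapor1, Galnt3 and Gopc. One of the 22, Elapor1, passed the call used for DE genes, an adjusted p below 0.05 with an absolute log2 fold change above 1, which 0.0165% of all genes passed. This call was lost in 6 of the 8 fits that left out 1 library, those without fl/fl 2, fl/fl 3, fl/fl 4, cKO 1, cKO 3 or cKO 4, and in 5 other fits named in the closing section. For the tested genes other than Elapor1 and Galnt3, the limma p adjusted over all genes ranged from 0.26 for Zpbp2 to 0.906 for Actl9, so no difference of these 20 genes passed the test. The groups did not overlap, with cKO lower, for 3 of the 22 genes (13.6%), beside 2.59% of all genes, and did not overlap with cKO higher for 0, beside 3.64%. Since the list was made with the contrast known, nothing is read from these shares.

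**Figure D2:**
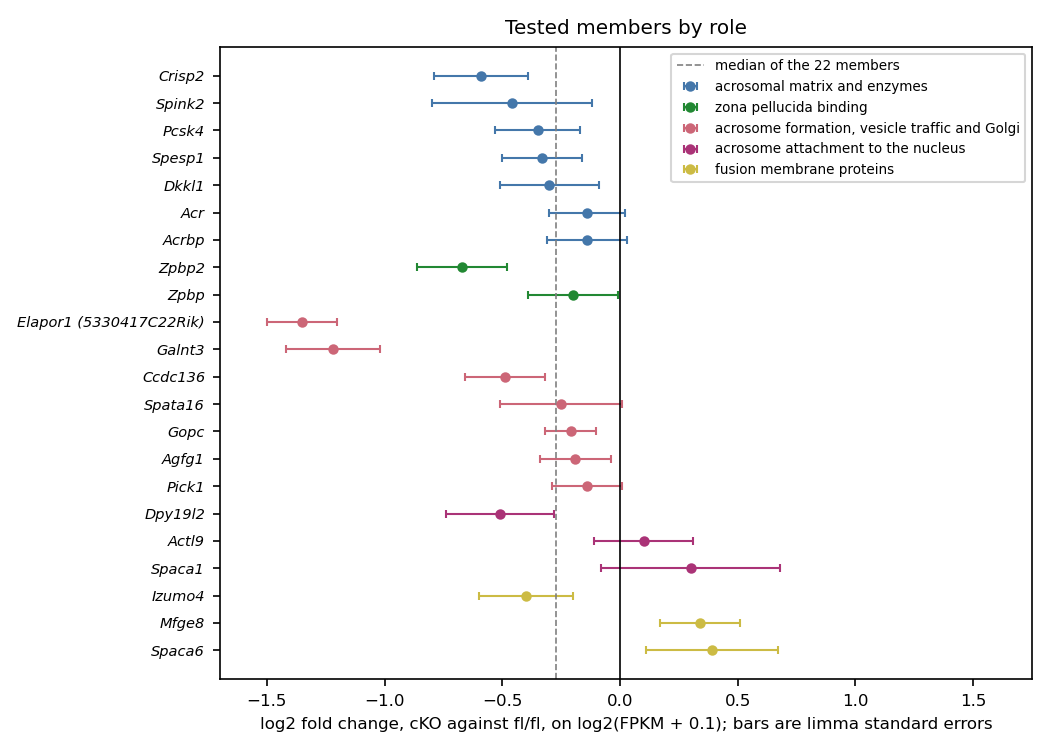
Log2 fold change of cKO against fl/fl for the 22 tested genes, grouped by role, with limma standard errors as bars and a dashed line at the median of -0.27. Points of the matrix, zona binding and acrosome formation groups all lie left of 0, Elapor1 and Galnt3 farthest, and the 4 points right of 0 belong to the attachment and fusion groups.

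By role, all 7 tested matrix genes, all 7 genes of acrosome formation and both zona binding genes were below 0, with medians of -0.33, -0.25 and -0.43. In the attachment group 1 of 3 was below 0, and in the fusion group 1 of 3. The early list had 7 of 7 genes tested, all below 0, with a median of -0.30 and no gene past the call, and the median became -0.15 without fl/fl 3 and -0.45 without cKO 1. Of the late list 3 of 8 genes had a mean above 0.1 FPKM over all libraries and 2 were tested, Dpy19l2 and Spaca1, in opposite directions. Over the 29 members with a mean above 0.1 FPKM over all libraries the median log2 fold change was -0.25, beside 0.02 over the 15937 protein-coding genes under the same filter.

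Libraries of a group differed from each other. The mean log2(FPKM + 0.1) of the 22 tested genes was 3.80 ± 0.16 in the fl/fl and 3.49 ± 0.19 in the cKO libraries (SD, n = 4), with cKO 1 at 3.74 within the fl/fl range of 3.62 to 4 and the other cKO libraries at 3.31 to 3.53. For the early list the spread within a group was about as large as the difference. Its mean log2 level, relative to the fl/fl mean, was -0.32, 0.09, 0.41 and -0.18 in fl/fl 1 to 4 and 0.05, -0.29, -0.42 and -0.61 in cKO 1 to 4. The group means were 4.66 ± 0.32 and 4.34 ± 0.28 on this scale (SD, n = 4). Among the cKO libraries, cKO 1 had the highest value for 18 of the 22 genes and cKO 4 the lowest for 15, while fl/fl 3 was the highest of the fl/fl libraries for 11 genes and fl/fl 1 for 8.

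**Figure D3:**
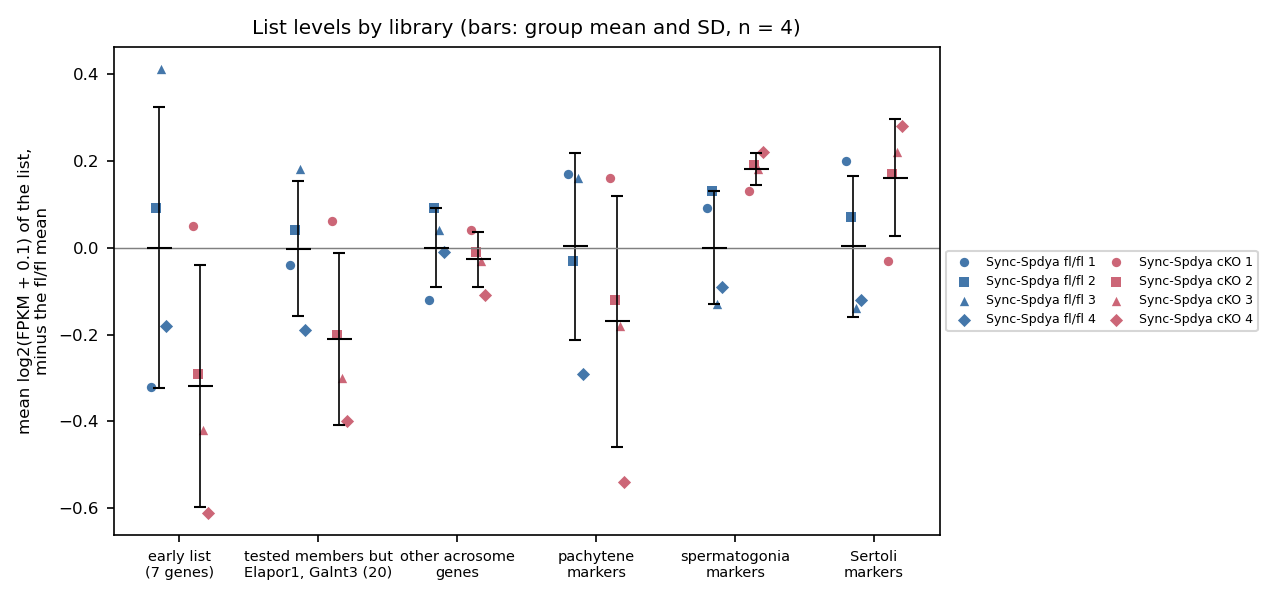
Mean log2(FPKM + 0.1) of 6 gene lists in each library, relative to the fl/fl mean of that list, with black bars for the group mean and SD. The early list and the tested members order the cKO libraries from cKO 1 down to cKO 4, as the pachytene markers do, while the spermatogonia and Sertoli markers have cKO 4 as their highest cKO library.

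Marker lists of the cell types of the testis also differed in level between the groups, with no gene past the call. Of the pachytene spermatocyte markers 7 of 7 tested were below 0, with a median of -0.30. They ran from Ldhc, the germ cell lactate dehydrogenase, at -0.73 to Pgk2 at -0.02. Hist1h1t of this list was too low to be tested and went the other way. Its means were 0.279 FPKM in the fl/fl and 0.667 FPKM in the cKO libraries, on 58 fragments in all and with overlapping groups. Of the Sertoli markers 8 of 8 were above 0 with a median of 0.15 (summed level 450 to 637 FPKM in the fl/fl and 503 to 615 FPKM in the cKO libraries), and of the spermatogonia markers 6 of 6 with a median of 0.16 (183 to 257 and 249 to 253 FPKM). The 3 macrophage markers (3.73 to 6.24 and 5.87 to 8.35 FPKM) and the 3 endothelial markers (4.06 to 10.4 and 9.56 to 12.4 FPKM) were also above 0, with medians of 0.48 and 0.62. So were the 2 tested Leydig markers (5 markers summing to 15.6 to 33.2 and 25.2 to 41 FPKM) and the 2 tested peritubular markers (3 markers, 43.1 to 73 and 71.8 to 101 FPKM), with medians of 0.59 and 0.36. Of the leptotene and zygotene markers 5 of 6 were below 0, with a median of -0.16 (38.9 to 53.7 and 38.7 to 57.1 FPKM), where Stra8, the switch into meiosis, was at -1.46 (SE 0.44) with overlapping groups and Meiob, the exception, at 0.69 (SE 0.21). Of the late pachytene and diplotene markers 2 of 3 tested were below 0, with a median of -0.14 (5 markers, 485 to 785 and 490 to 706 FPKM). Ybx2, which is in the pachytene list too, made up most of that sum. The untested markers Ccna1 and Pou5f2 had means of 1.65 and 0.462 FPKM in the fl/fl and 0.964 and 0.261 FPKM in the cKO libraries. No marker of these lists was at 0 in a whole group. When each library was centred on the pachytene markers instead, the median of all genes moved to 0.34 and that of the 22 tested members to 0.06, and Elapor1 was at -1.01 (SE 0.24). This centring shifts all genes of a library alike, so the distance of the members from the median of all genes is fixed by its construction. The part of these cells in the levels of the acrosome genes was not tested.

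A second list of 49 acrosome and fusion genes outside the 42, which shares Adam2 and Mybl1 with the pachytene markers, was compared, with 48 found and 30 tested. Of these 20 were below 0 and 10 above 0, with a median of -0.10, and 0 passed the call in limma, where 6 had an unadjusted p below 0.05 (5% of all genes did with cKO lower and 5.89% with cKO higher) and the lowest adjusted p was 0.127. The groups did not overlap for 3 of the 30 genes with cKO lower (Adam3, Spaca9 and Golga3), beside 2.59% of all genes. With cKO higher they did not overlap for 1 (Ace), beside 3.64%. Earlier results were known when this list was made as well, so nothing is read from these shares. Adam3, a sperm surface protein needed to reach the egg, had 4.25, 5.53, 8.79 and 5.68 FPKM in the fl/fl and 3.1, 3.81, 2.68 and 2.28 FPKM in the cKO libraries (log2 fold change -0.98, SE 0.22, limma adjusted p = 0.172). Spaca9 had 5.62, 7.68, 6.94 and 5.8 FPKM in the fl/fl and 3.31, 4.02, 3.33 and 4.34 FPKM in the cKO libraries (log2 fold change -0.78, SE 0.14, limma adjusted p = 0.127). Ace, the angiotensin-converting enzyme with a testis form, had 1.69, 2.81, 1.85 and 3.2 FPKM against 3.91, 3.68, 3.58 and 4.8 FPKM (log2 fold change 0.76, SE 0.21, limma adjusted p = 0.245). These were the 3 largest log2 fold changes among the 30 tested. Adam3, Spaca9 and Ace did not pass the threshold.

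The promoters of present and absent members were compared in sequence. RefSeq windows on GRCm38.p6 were matched for 37 of the 42 genes, and the first listed window of a gene was used for the CG counts. Some windows lay partly or wholly inside the annotated gene. Those of Crisp2 and Spaca6 reached 12857 and 3817 bases past its start. The windows of Dkkl1, Ccdc136, Spink2, Acrbp and Galnt3 reached 201 to 266 bases past it. The 250 bases before the RefSeq start held a median of 11 CG dinucleotides in the 19 tested genes with a window and 2.5 in the 18 that were not tested. The same split was seen in other protein-coding genes, with 16 in the 9716 tested and 3 in the 6992 not tested, so it was not particular to acrosome genes. There were exceptions on both sides. Lyzl4, with 18 CG dinucleotides, was nearly undetected, and Actl9, with 0, had 4.95 FPKM.

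The windows of 6 genes, all outside the annotated gene, are shown to make this contrast visible, with each CG in capitals. The first 3 belong to expressed genes, a gene of high level and 2 whose groups did not overlap, and the last 3 to genes of the late list at or below 0.1 FPKM.
Mfge8 (chr7:79149061-79149310, minus strand): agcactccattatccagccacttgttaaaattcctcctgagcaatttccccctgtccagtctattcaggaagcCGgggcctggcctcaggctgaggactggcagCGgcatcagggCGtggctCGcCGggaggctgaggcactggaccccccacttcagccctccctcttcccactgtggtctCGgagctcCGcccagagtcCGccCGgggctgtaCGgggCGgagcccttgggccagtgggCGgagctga
Zpbp2 (chr11:98550847-98551096, plus strand): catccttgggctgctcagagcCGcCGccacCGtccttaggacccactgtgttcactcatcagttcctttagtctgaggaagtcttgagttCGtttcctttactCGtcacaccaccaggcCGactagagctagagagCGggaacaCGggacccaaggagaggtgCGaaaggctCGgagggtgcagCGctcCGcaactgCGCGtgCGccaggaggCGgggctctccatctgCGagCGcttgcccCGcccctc
Elapor1 (chr3:108536542-108536791, minus strand): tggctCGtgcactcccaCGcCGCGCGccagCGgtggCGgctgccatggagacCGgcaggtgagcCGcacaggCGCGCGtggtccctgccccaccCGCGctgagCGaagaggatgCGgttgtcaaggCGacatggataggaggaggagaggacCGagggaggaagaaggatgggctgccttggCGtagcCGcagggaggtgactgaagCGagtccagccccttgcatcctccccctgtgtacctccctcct
Acrv1 (chr9:36692970-36693219, plus strand): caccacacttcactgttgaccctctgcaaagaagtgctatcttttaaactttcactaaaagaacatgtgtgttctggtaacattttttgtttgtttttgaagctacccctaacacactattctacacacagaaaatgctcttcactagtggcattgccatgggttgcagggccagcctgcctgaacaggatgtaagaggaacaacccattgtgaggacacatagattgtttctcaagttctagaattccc
Hyal5 (chr6:24857747-24857996, plus strand): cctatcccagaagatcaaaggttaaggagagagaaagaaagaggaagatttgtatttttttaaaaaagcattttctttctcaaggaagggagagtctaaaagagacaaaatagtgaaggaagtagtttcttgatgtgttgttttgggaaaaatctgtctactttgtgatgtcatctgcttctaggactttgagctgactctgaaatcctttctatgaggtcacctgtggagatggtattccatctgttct
Spam1 (chr6:24790938-24791187, plus strand): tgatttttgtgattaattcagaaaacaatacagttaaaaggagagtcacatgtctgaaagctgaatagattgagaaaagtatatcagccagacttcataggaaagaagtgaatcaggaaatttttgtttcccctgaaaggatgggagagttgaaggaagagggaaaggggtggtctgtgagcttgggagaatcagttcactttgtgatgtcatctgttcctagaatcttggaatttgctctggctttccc
The windows of Mfge8, Zpbp2 and Elapor1 held 12, 19 and 21 CG dinucleotides, and those of Acrv1, Hyal5 and Spam1 held 0. Their GC content was 65.2%, 62.4% and 68% for the first 3 and 42%, 37.2% and 39.6% for the last 3.

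**Figure D4:**
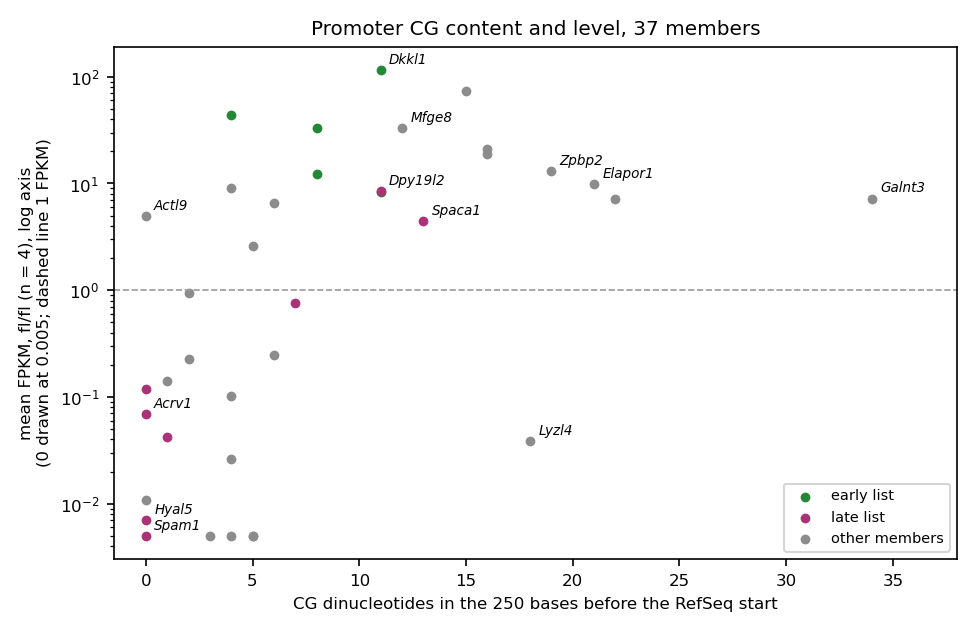
Mean FPKM in fl/fl testes (log axis, zeros drawn at 0.005) against the number of CG dinucleotides in the 250 bases before the RefSeq start, for 37 genes, with the early list in green and the late list in purple. Genes of the late list such as Spam1, Hyal5 and Acrv1 sit at 0 on the horizontal axis and below 0.1 FPKM, while Spaca1 and Dpy19l2, with 13 and 11, lie above 1 FPKM.

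Short motifs were then sought on both strands in the 250 bases before every RefSeq start of a gene. A gene was counted if any of its windows held the motif. Most of the 37 genes had 1 window, whereas Ccdc136 had 4, Lyzl4 and Spink2 had 3, and Pick1, Spaca1 and Spaca3 had 2. The RFX half-site GTTGCC was found for 5 of the 19 tested genes with a window (Dkkl1, Spesp1, Acrbp, Pick1 and Spaca6). It was found for 2 of the 18 genes not tested and for 12% of all protein-coding genes with a window. The half-site TGACG of the cyclic AMP response element was found for 5 of 19, 4 of 18 and 22.6%. The full element TGACGTCA, which contains that half-site, was in the Izumo1 window only, beside 2.2% of all genes. The MYB motif GGCAGTT was found for none of the 37 genes, beside 3.7%. These counts describe letters in windows of 250 bases and say nothing of binding.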

How the data were processed

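Bulk RNA-seq of 8 whole testes was analysed, 4 per group, grouped by labelled genotype. The authors deposited FPKM values made by a sequencing company's software. The submitters' notes name GRCm38 and mm10, and the aligner, the counter and the use of strand are not given in the sources used here. Besides Elapor1 and Izumo1, other members have intervals that overlap protein-coding genes. Pick1 overlaps Gm49486 on the same strand, while Zpbp, Dpy19l2 and Gopc lie opposite Spata48, Cypt4 and Gm26741. Fragments there could belong to either gene. The labels name a column kit for RNA and the methods name Trizol. Multiplied by gene length and divided by the worth of 1 fragment fitted for each library, 100% of the nonzero values were whole fragments (tolerance 0.02). The fit used limma 3.58.1 in R 4.3.3 (eBayes with trend) on log2(FPKM + 0.1), over 12141 protein-coding genes whose mean exceeded 1 FPKM in the fl/fl and in the cKO group, with Benjamini-Hochberg adjustment over all of them. Fold changes on this scale understate those of low genes. The authors' DESeq2 test was not run. Data for cKO against fl/fl were also simulated, with 200 of the 12141 genes differing by 1.5 (log2). Of these, 200 were found at a set dispersion of 0.02 and 196 at 0.05, with 1 false call each. The share found at the spread of the 8 libraries was not tested. In the libraries, Elapor1 at -1.35 (SE 0.15) passed the call. Stra8 at -1.46 (SE 0.44, limma adjusted p = 0.28) did not. Levels by library are given for genes whose groups did not overlap, DE genes, the 5 highest, the early and late lists and relatives within a family, and of the second acrosome list for the 3 tested genes with the largest fold change. Members and lists were chosen with earlier results of these data known. Coordinates of all 42 members equalled GENCODE vM21. Alternatives were other pseudocounts, filters, scalings, weights and tests, a replicate block, and each library left out. P-values measure the spread between mice of 1 study.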

Additional observations from a re-analysis of the deposited data

Results flagged for a closer look

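A library was called far from the other 3 of its group when its gap to the nearest of them, divided by the range of the group, exceeded Dixon's 95% critical value. Of 58 groups of 4 libraries, 2 for each of the 29 genes with a mean above 0.1 FPKM, 8 held such a library. At 1 in 20 for separate groups, 2.9 would be flagged. The share over all genes was not computed, and genes that vary together are not separate draws. Nothing is therefore read from 8 against 2.9. In cKO 1, 5 genes were high, with Izumo4 at 17.3 FPKM against 11.9 to 12.1 in the other cKO libraries, Spata16 at 14 against 8.2 to 9.12, Acrbp at 8.94 against 6.88 to 7.2, Eqtn at 1.16 against 0.824 to 0.876 and Tmem190 at 0.592 against 0.144 to 0.204 FPKM. Elapor1 (5330417C22Rik) was high in cKO 2 at 4.53 FPKM against 3.47 to 3.62. In fl/fl 4, Actl9 was low at 3.38 FPKM against 5.45 to 5.5, and Spaca6 was high at 4.36 against 1.77 to 2.07 FPKM.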

How the results depend on the processing

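Elapor1 was the 1 member called with all libraries, and the count stayed at 1 with other pseudocounts, the low filter, eBayes without trend, voom on recovered fragments and adjusted p alone. It became 0 without a filter, with centring on autosomal genes, with rescaling to TPM and with centring on pachytene markers (chosen after seeing the data), 0 with a filter of 5 FPKM, under which Elapor1 was not tested, and 2 with array weights (Galnt3 added), which gave fl/fl 1 a weight of 0.161. It was 0 to 1 when a library was left out, and Elapor1 then stayed between -1.45 and -1.23. With a replicate block it was 0; libraries of the same number had deviations that correlated at 0.0757 to 0.4056, under 0.1 for 1 of the 4, so the numbers were not taken as pairs, although 3 of the 4 correlated best with their own. The median of the 29 members above 0.1 FPKM (-0.25) was -0.31 to -0.18 when a library was left out. It was -0.41 with array weights and 0.09 with pachytene centring. That of the 22 tested (-0.27) was -0.42 to -0.19, -0.45 and 0.06 in the same order. The early list gave -0.45 to -0.15 when a library was left out and 0.03 with pachytene centring. The late list (-0.16 over its genes above 0.1 FPKM) gave -0.34 to -0.03 and 0.17. With the filter of 5 FPKM only Dpy19l2 of the late list was left, at -0.51. Pachytene centring, which moved all genes by the same amounts per library, turned 9 members: Dkkl1 0.03, Agfg1 0.14, Spesp1 0.01, Acr 0.19, Spata16 0.09, Zpbp 0.13, Acrbp 0.19, Gopc 0.12 and Pick1 0.19. Array weights turned Actl9 to -0.07 and left 7 members with a limma adjusted p below 0.05. The share of all genes passing under these weights is not given here. Nothing is therefore read from the 7, nor from the count of 2 with array weights. Leaving out a library turned Actl9 (-0.08 to 0.18) and Spaca1 (-0.01 to 0.71). The other 11 tested members kept their direction under each alternative run, and the cause of the other changes was not tested.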
